A study of Homo sapiens with 6 samples.

Results

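The 10 genes described here encode the stress factor NRF2 (NFE2L2), its repressor KEAP1, and enzymes that reduce quinones, thiols, peroxides and superoxide. They were taken by symbol from a table of 18806 genes, and all 10 were found and passed the filter on low values. Poly(A)+ RNA was measured in 6 libraries of the monocytic human leukemia (AML) line Mono-mac-6, which carries MLL-AF9, a fusion gene. All cells descend from 1 clone that expresses Cas9, and all received a guide RNA by lentivirus. Cells with sgNS served as control, and DDX6, an RNA helicase of mRNA decay and translational repression, was targeted by either of 2 guides (sgDDX6.1, sgDDX6.2), with 2 libraries for each of the 3 groups. The labels place the harvest 8 days after infection, while the design text describes drug selection of infected cells for up to 2 weeks (hygromycin B at 200 µg/ml and blasticidin at 10 µg/ml), so the day is uncertain.

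NRF2 is a transcription factor that KEAP1 marks for degradation under resting conditions. Oxidants and electrophiles modify KEAP1, NRF2 then builds up, pairs with small MAF proteins and binds the antioxidant response element of its target genes. Among the targets are NQO1, which reduces quinones by 2 electrons at a time, and the thioredoxin chain. In that chain NADPH reduces thioredoxin reductase (TXNRD1), which reduces thioredoxin (TXN), which in turn restores peroxiredoxins such as PRDX1 after they have removed a peroxide. Sulfiredoxin (SRXN1) rescues peroxiredoxins that were oxidized too far. Glutathione peroxidase (GPX1) and catalase (CAT) remove hydrogen peroxide by other chemistry, and the mitochondrial superoxide dismutase (SOD2) makes it from superoxide. The protein level of NRF2 is set mainly by degradation, so the mRNA values below do not measure its activity.

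The promoters of TXNRD1 and GPX1 are shown because these genes lie at the ends of the range of change. The core of the antioxidant response element, TGACNNNGC on either strand, is in capitals where it occurs. Each line gives 300 bases of the gene's own strand, from 250 before an annotated start of the gene, from RefSeq (GRCh38.p14).
TXNRD1, chr12:104215529-104215828, plus strand: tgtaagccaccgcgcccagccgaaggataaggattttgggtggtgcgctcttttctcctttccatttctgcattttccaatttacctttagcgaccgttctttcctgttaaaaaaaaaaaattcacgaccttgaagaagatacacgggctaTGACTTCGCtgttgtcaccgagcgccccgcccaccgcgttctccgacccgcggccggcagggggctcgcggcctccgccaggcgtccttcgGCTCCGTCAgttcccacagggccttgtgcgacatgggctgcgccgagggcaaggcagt
GPX1, chr3:49358304-49358603, minus strand: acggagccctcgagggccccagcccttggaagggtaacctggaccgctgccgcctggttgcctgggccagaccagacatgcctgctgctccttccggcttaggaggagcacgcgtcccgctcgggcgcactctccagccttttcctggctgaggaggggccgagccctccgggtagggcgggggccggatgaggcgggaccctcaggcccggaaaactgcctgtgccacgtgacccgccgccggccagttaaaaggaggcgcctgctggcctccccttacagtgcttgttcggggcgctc
The TXNRD1 window held 2 matches, TGACTTCGC on the gene's strand with its first base 99 bases upstream of the start, and GCTCCGTCA, a match on the opposite strand, with its first base 8 bases upstream. This window lies at the outermost annotated start of TXNRD1 (104215779), and starts further inside the gene were not examined. Which start gave the measured TXNRD1 mRNA was not tested, so the window may not be its promoter. Promoters of 9 of the 10 genes were in the RefSeq set, and the other 8 windows held no match, so these letters are not in those 300 bases. The SOD2 window (chr6:159727335-159727634) lies inside the gene, away from its outermost RefSeq edge at 159762281, where the minus-strand gene begins. Other starts of these genes were not examined either. Over all 35116 promoters of this length the core occurred in 13.35%, and over 34 promoters of NRF2 target genes in 9. A match is a string of letters and not a shown binding site.

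DDX6 itself, a check of the labels, fell with both guides from 100.8 ± 1.85 TPM in sgNS (mean ± SD, n = 2) to 53.2 ± 1.73 with sgDDX6.1 and 52.9 ± 0.799 with sgDDX6.2. TPM is transcript abundance divided by length and scaled to 1000000 per library, so levels can be compared between genes, but read depth is unknown. Of the 7 myeloid markers 4 rose over both guides (LYZ, CD68, CSF1R and CD33) and 3 fell (MPO by 1.23 on the log2 scale, CD14 by 0.49 and ITGAM by 0.34). CD33 did not pass with sgDDX6.1 alone (0.05, limma adjusted p = 0.521). CSF1R (0.71 and 0.98 TPM in sgNS), CD14 (1.36 and 1.18) and ITGAM (3.88 and 4.53) were low. The sum of the 7 markers, nearly all LYZ, was between 9901 and 10389 TPM in sgNS and between 14198 and 15424 in the sgDDX6 libraries. Of 13 markers of other cell types, 5 were listed at 0 in every library, among them CD3D, CD3E, MS4A1 and HBB, and only PECAM1, NKG7, CD79A and HBA1 passed the filter on low values. This second list summed to between 171.9 and 177.4 TPM in sgNS, between 270.1 and 273.5 in sgDDX6.1, and between 378.4 and 390.5 in sgDDX6.2. Nearly all of that sum was PECAM1 and NKG7, with means of 65.8 and 106.7 TPM in sgNS, so it is not a measure of other cell types as a whole. Ribosomal protein genes held 23.71% and 23.79% of TPM in sgNS and between 18.19% and 19.28% in the sgDDX6 libraries, so leaving them out of the scaling shifts the median of all genes by -0.09. The part of these shifts in the results below was not tested, and in bulk RNA fewer cells of a type and less RNA per cell cannot be told apart.

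The 10 genes split into 3 groups by their response. NFE2L2, NQO1, TXNRD1 and SRXN1 fell with DDX6 targeted, PRDX1, GPX1, CAT and SOD2 rose, and KEAP1 and TXN did not pass the test over both guides. Changes are differences in log2(TPM + 1), tested with limma over all 11151 genes with enough signal, two-sided, and called at a Benjamini-Hochberg adjusted p under 0.05. For the mean of both guides against sgNS, 4 of the 10 genes were higher, where 33.8% of all tested genes were, and 4 were lower, where 32.9% of all tested genes were. Among the 6185 genes at least as abundant on average as SRXN1, the lowest of the 10, 71.4% were called in either direction. The libraries of sgNS and sgDDX6 did not overlap for 8 of the 10 genes, against 63.4% of tested genes. The number of calls among the 10 is therefore near the background, and the median size of change was 0.34 against 0.23 over all genes tested. Whether the replicates were separate cultures is not labelled, and p-values then measure the spread between these libraries, which may be technical.

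**Figure D1:**
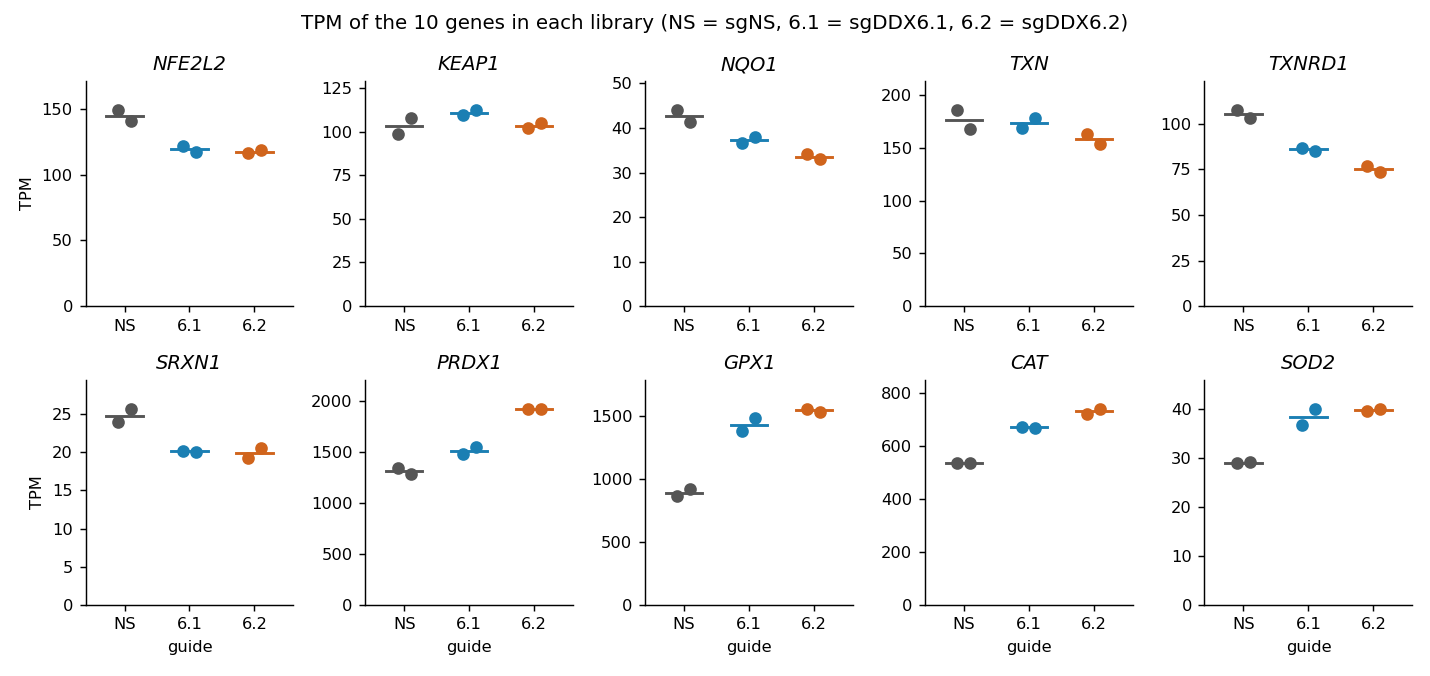
TPM of each of the 10 genes (vertical axis from 0, a scale for each gene) by guide (NS, 6.1 and 6.2 for sgNS, sgDDX6.1 and sgDDX6.2); points are single libraries and lines are means of 2. In 8 of the 10 panels all 4 sgDDX6 points lie on the same side of both sgNS points, the exceptions being KEAP1 and TXN.

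NFE2L2, the gene of NRF2 (chromosome 2, 177230303 to 177264727, minus strand, RefSeq coordinates on GRCh38 here and below), had 148.9 and 140.7 TPM in the sgNS libraries. It had 121.8 and 117.4 TPM in sgDDX6.1, and 116.6 and 118.6 in sgDDX6.2. All 4 sgDDX6 libraries lay below both sgNS libraries, and the 2 DDX6 guides overlapped each other. The log2 change over both guides was -0.29 (SE 0.04, limma adjusted p = 4.81e-05), or 0.819 of the sgNS mean. The guides differed by -0.02, with a 95% interval of -0.12 to 0.07 (adjusted p = 0.702).

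KEAP1, the adaptor that brings NRF2 to a ubiquitin ligase (chromosome 19, 10486125 to 10503356, minus strand), had 98.7 and 107.8 TPM in sgNS. It had 109.3 and 112.1 in sgDDX6.1, and 102.2 and 104.7 in sgDDX6.2. The sgDDX6.2 values fell between those of the 2 sgNS libraries. Its log2 change over both guides was 0.05 (95% interval -0.04 to 0.15, limma adjusted p = 0.302), and its sign turned when TPM was rescaled without ribosomal protein genes (-0.040) and when the GC trend was removed (-0.014). It also turned without sgNS replicate 1 (-0.011), while without sgNS replicate 2 the value for sgDDX6.1 was 0.16 and was called (adjusted p = 0.0226). With the GC trend removed both guides were called in opposite directions, sgDDX6.1 at 0.078 (adjusted p = 0.0427) and sgDDX6.2 at -0.107 (adjusted p = 0.011). With NFE2L2 lower and KEAP1 near its control level, the ratio of their TPM was 1.51 and 1.30 in sgNS, 1.12 and 1.05 in sgDDX6.1, and 1.14 and 1.13 in sgDDX6.2.

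NQO1, the quinone reductase often read as a marker of NRF2 activity (chromosome 16, 69709401 to 69726560, minus strand), had 43.95 and 41.25 TPM in sgNS. It had 36.7 and 37.9 in sgDDX6.1, and 34.1 and 33.1 in sgDDX6.2. The 3 groups did not overlap and sgDDX6.2 was lowest. The log2 change was -0.26 over both guides (SE 0.05, limma adjusted p = 5.01e-04), -0.19 with sgDDX6.1 and -0.33 with sgDDX6.2. The sgDDX6.1 call (adjusted p = 0.012) was lost without sgNS replicate 1 (-0.14, adjusted p = 0.106) and without sgDDX6.1 replicate 1 (-0.16, adjusted p = 0.0541).

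TXNRD1, the cytosolic thioredoxin reductase and a selenoprotein (chromosome 12, 104215779 to 104350307, plus strand), showed the largest fall of the 10. It had 107.4 and 103.3 TPM in sgNS, 87.0 and 85.0 in sgDDX6.1, and 76.7 and 73.7 in sgDDX6.2. The 3 groups were separate and sgDDX6.2 was lowest. The log2 change was -0.39 over both guides (SE 0.04, limma adjusted p = 4.99e-06), which is 0.765 of the sgNS mean and larger in size than 72.07% of tested genes.

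TXN, the small thiol carrier that TXNRD1 reduces (chromosome 9, 110243810 to 110256507, minus strand), had 185.8 and 168.1 TPM in sgNS. It had 168.9 and 179.0 in sgDDX6.1, and 163.5 and 153.8 in sgDDX6.2. Both sgDDX6.2 libraries lay below both sgNS libraries, and both sgDDX6.1 libraries lay within the sgNS range. The log2 change over both guides was -0.09 (95% interval -0.19 to 0.01, limma adjusted p = 0.114), and with sgDDX6.2 it was -0.16 (adjusted p = 0.0255). The latter call was lost without sgNS replicate 1 (-0.08, adjusted p = 0.236) and without sgDDX6.2 replicate 2 (-0.11, adjusted p = 0.188). It was also lost with no filter, with median centring, without the variance trend and after removal of the GC trend (adjusted p between 0.072 and 0.376), and TPM rescaled without ribosomal protein genes moved it to -0.25. Conversely, over both guides TXN was called under quantile normalization (-0.15), without ribosomal protein genes (-0.18) and without sgNS replicate 2 (-0.16). GENCODE release 29 lists 7 pseudogenes named after TXN, with which reads can be shared.

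SRXN1, which repairs overoxidized peroxiredoxins (chromosome 20, 646615 to 653200, minus strand), was the least abundant of the 10. It had 23.9 and 25.7 TPM in sgNS, 20.2 and 20.0 in sgDDX6.1, and 19.2 and 20.6 in sgDDX6.2. Every sgDDX6 library was below both sgNS libraries, with no order between the DDX6 guides. Its log2 change was -0.30 over both guides (SE 0.06, limma adjusted p = 5.84e-04), -0.29 with sgDDX6.1 and -0.30 with sgDDX6.2.

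PRDX1, the cytosolic peroxiredoxin that thioredoxin keeps reduced (chromosome 1, 45511051 to 45522890, minus strand), was the most abundant of the 10. It had 1342 and 1290 TPM in sgNS, 1484 and 1548 in sgDDX6.1, and 1925 and 1923 in sgDDX6.2. The groups rose in that order without overlap, and the sgDDX6.2 libraries were nearly equal. The log2 change was 0.38 over both guides (SE 0.03, limma adjusted p = 5.82e-07), 0.20 with sgDDX6.1 and 0.55 with sgDDX6.2. The sgDDX6.1 value was 0.11 under quantile normalization and also 0.11 without ribosomal protein genes, called in both (adjusted p = 0.0166 and 0.0145).

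GPX1, the selenoprotein that reduces hydrogen peroxide with glutathione (chromosome 3, 49357176 to 49358353, minus strand), rose most. It had 862.4 and 920.1 TPM in sgNS, 1386 and 1483 in sgDDX6.1, and 1557 and 1538 in sgDDX6.2. The lowest sgDDX6 library was well above the higher sgNS library. Its log2 change was 0.74 over both guides (SE 0.04, limma adjusted p = 8.82e-09), a mean 1.67 times that of sgNS, and larger in size than 92.96% of tested genes.

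CAT, the peroxisomal enzyme that splits hydrogen peroxide without any reductant (chromosome 11, 34438934 to 34472060, plus strand), had 536.6 and 536.5 TPM in sgNS. It had 670.9 and 668.5 in sgDDX6.1, and 721.3 and 739.1 in sgDDX6.2. The 3 groups were separate, with replicates close together. The log2 change was 0.38 over both guides (SE 0.03, limma adjusted p = 3.42e-07).

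SOD2, the manganese superoxide dismutase of mitochondria (chromosome 6, 159669069 to 159762281, minus strand), had 28.9 and 29.1 TPM in sgNS. It had 36.6 and 39.9 in sgDDX6.1, and 39.5 and 39.9 in sgDDX6.2. Both DDX6 guides lay above sgNS and overlapped each other. The log2 change was 0.41 over both guides (SE 0.05, limma adjusted p = 1.74e-05), or 1.34 times the sgNS mean.

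By level per length, the order in sgNS was PRDX1, GPX1, CAT, TXN, NFE2L2, TXNRD1, KEAP1, NQO1, SOD2 and SRXN1. TXNRD1 and KEAP1 were not apart in sgNS, with means of 105.3 and 103.2 TPM and overlapping libraries. With both DDX6 guides KEAP1 stood above TXNRD1, and SOD2 above NQO1 in sgDDX6.2, while in sgDDX6.1 the SOD2 and NQO1 libraries overlapped. PRDX1, GPX1 and CAT together made up 81.13% and 81.68% of the summed TPM of the 10 genes in sgNS and between 85.91% and 88.53% in the sgDDX6 libraries. The 10 genes summed to 3379 and 3362 TPM in sgNS, 4122 and 4290 in sgDDX6.1, and 4756 and 4744 in sgDDX6.2. The other 7 genes summed to less in every sgDDX6 library (between 544.2 and 591.3 TPM) than in sgNS (615.9 and 637.5).

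Within the thioredoxin chain the balance of carrier, reductase and substrate moved. The ratio of TXN to TXNRD1 was 1.73 and 1.63 in sgNS, 1.94 and 2.11 in sgDDX6.1, and 2.13 and 2.09 in sgDDX6.2. The ratio of PRDX1 to SRXN1, a substrate to its repair enzyme, was 56.2 and 50.3 in sgNS, 73.5 and 77.4 in sgDDX6.1, and 100.1 and 93.5 in sgDDX6.2. These ratios are descriptions of mRNA levels and do not change with the scaling of a library.

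**Figure D2:**
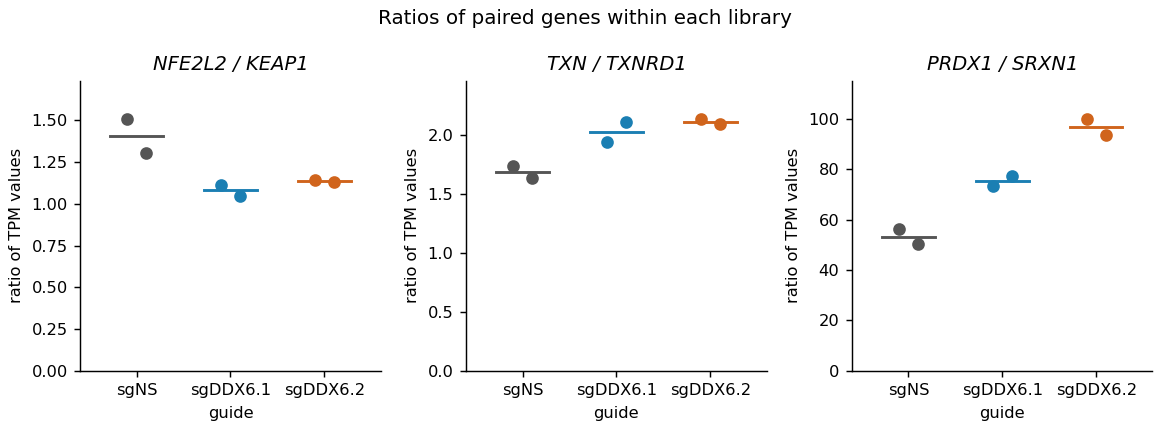
Ratio of the TPM of 2 genes within each library (vertical axis from 0), by guide; points are libraries and lines are means of 2. NFE2L2 over KEAP1 was between 1.05 and 1.14 in the sgDDX6 libraries against 1.30 and 1.51 in sgNS, and both other ratios were higher in all 4 sgDDX6 libraries.

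With single guides the same 8 genes were called in the same direction. For sgDDX6.1 against sgNS, 4 genes were higher and 4 lower, where 31.8% and 29.7% of tested genes were. For sgDDX6.2 against sgNS, 4 were higher and 5 lower, TXN being the fifth, where 31.5% and 32.7% were. These comparisons share the sgNS libraries, so their likeness is not independent evidence. GPX1 had 0.69 (SE 0.04) and 0.80 (SE 0.04), SOD2 0.39 and 0.44, and CAT 0.32 and 0.44, for sgDDX6.1 and sgDDX6.2 in turn.

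The 2 DDX6 guides were compared directly, and 3 of the 10 genes differed. PRDX1 and CAT were higher with sgDDX6.2, where 17.0% of tested genes were, and TXNRD1 was lower, where 18.6% were. The difference was 0.34 for PRDX1 (SE 0.03, limma adjusted p = 3.68e-05), 0.12 for CAT (SE 0.03, adjusted p = 0.0131) and -0.19 for TXNRD1 (SE 0.05, adjusted p = 0.00787). Without sgDDX6.2 replicate 2 only PRDX1 of the 10 was called, and without either sgNS replicate 5 genes were called. The libraries of the 2 guides did not overlap for 7 of the 10 genes, against 69.1% of tested genes. The TXNRD1 and CAT calls were lost without sgDDX6.2 replicate 2 (-0.16, adjusted p = 0.0942, and 0.11, adjusted p = 0.137), and the CAT call also without sgDDX6.2 replicate 1 (0.14, adjusted p = 0.0531). The CAT call was lost too under quantile normalization (0.08, adjusted p = 0.0631) and without the variance trend (adjusted p = 0.0881). GPX1 (0.11, 95% interval 0.02 to 0.20, adjusted p = 0.0584) and NQO1 (-0.15, interval -0.27 to -0.03, adjusted p = 0.0561) missed the threshold, and the intervals for SRXN1 (-0.16 to 0.13) and SOD2 (-0.07 to 0.18) spanned 0.

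**Figure D3:**
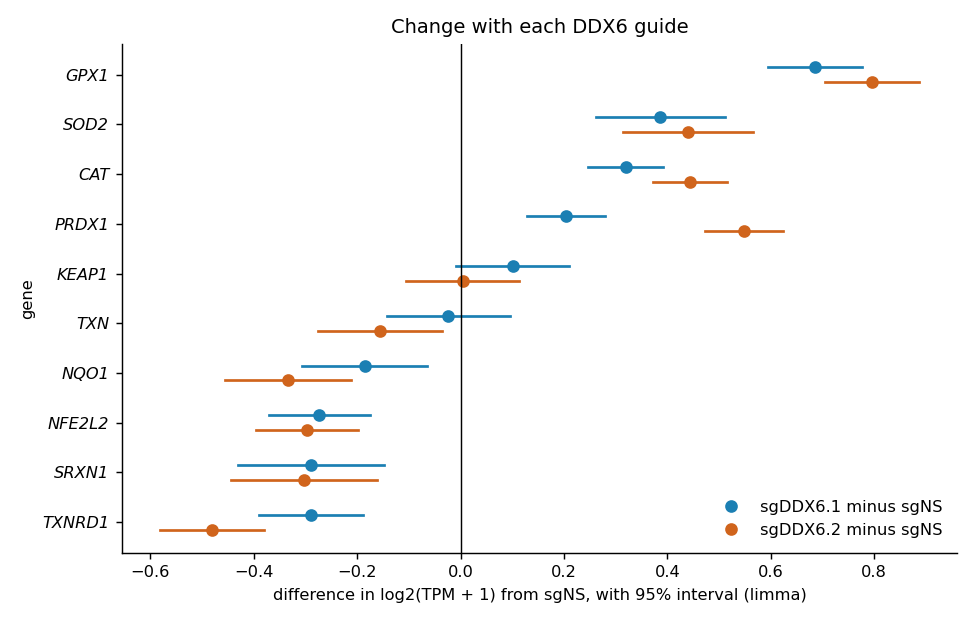
Difference in log2(TPM + 1) of each DDX6 guide from sgNS (horizontal axis) for the 10 genes; points are limma estimates and bars are 95% intervals. Both intervals lie below 0 for 4 genes and above 0 for another 4, and PRDX1 shows the widest gap between guides (0.20 and 0.55).

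Transcript composition differed among the 10. GC content of the principal GENCODE release 29 transcript ran from 41.74% in SOD2 and 42.81% in TXN to 60.3% in KEAP1 and 64.21% in GPX1, where the median of tested genes was 48.95%. GPX1 had a higher GC content than 94.31% of tested genes and SOD2 than 22.52%, and both rose. Across 11088 genes, which are not independent replicates and share their libraries, Pearson's r between GC content and log2 change over both guides was 0.171. After removal of the GC trend GPX1 was 0.66 and SOD2 0.51 (limma adjusted p = 2.34e-07 and 2.64e-05), and the 8 genes called over both guides were still called in the same direction.

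Genes that overlap the 10 in the annotation were looked at because the strand used in counting is not given in the sources used here. Overlaps were read from GENCODE release 29, where NFE2L2 spans 177227595 to 177392697, well beyond the RefSeq end given above (177264727). AGPS overlaps this wider NFE2L2 gene and changed by -0.15, the same sign as NFE2L2. Whether AGPS reaches the RefSeq span of NFE2L2 was not checked. WTAP overlaps SOD2 and changed by -0.12, opposite in sign to SOD2. MMACHC overlaps PRDX1 at a far lower level, with 6.34 and 6.28 TPM in sgNS, 9.61 and 9.69 in sgDDX6.1, and 7.84 and 7.23 in sgDDX6.2. It changed by 0.38 over both guides (limma adjusted p = 3.31e-04), the same sign as PRDX1. EID3, inside TXNRD1, stayed between 0.22 and 0.93 TPM. Reads of GPX1, PRDX1 and SOD2 can also be shared with pseudogenes named after them (2, 1 and 1 in GENCODE release 29).

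The other genes that act with NRF2 did not move in a single direction. Of 13 tested genes of NRF2 control (adaptors, partners and repressors, with NFE2L2 and KEAP1 counted), 4 rose and 5 fell over both guides. Among all tested genes 33.8% rose and 32.9% fell. The median log2 change of the list was 0.03. The median over all genes tested was 8.4e-04, and the list's median turned to -0.06 without ribosomal protein genes and was 0.0043 (6 higher, 5 lower) with the GC trend removed. NFE2L1, a relative of NRF2 that drives proteasome genes, had 270.7 and 275.8 TPM in sgNS, 130.7 and 124.9 in sgDDX6.1, and 123.2 and 129.7 in sgDDX6.2. It fell by 1.10 on the log2 scale (limma adjusted p = 4.31e-10), far more than NFE2L2. Of the small MAF partners, MAFG had 199.8 and 212.5 TPM in sgNS and between 141.3 and 157.3 in the sgDDX6 libraries, a change of -0.45 (adjusted p = 1.21e-06). MAFF was low, with 3.59 and 3.39 TPM in sgNS and between 1.80 and 2.65 in the sgDDX6 libraries (-0.49). MAFK went the other way (0.27), from 34.53 and 34.99 TPM in sgNS to 46.2 and 44.7 in sgDDX6.1 and 38.2 and 40.4 in sgDDX6.2. PGAM5, a mitochondrial phosphatase that binds KEAP1, rose by 0.47. BACH1 was not matched by name and is not analysed here.

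Of 40 tested NRF2 target genes, 12 rose and 18 fell over both guides (median -0.11), where 33.8% of all tested genes rose and 32.9% fell. Without the members of the set of 10, 11 rose and 15 fell of 35. TPM without ribosomal protein genes gave 11 higher and 21 lower (median -0.20), and removal of the GC trend 12 and 19 (median -0.07). SLC7A11, the cystine transporter that feeds glutathione synthesis and is also a target of the factor ATF4, had 74.9 and 69.2 TPM in sgNS. It had 17.4 and 14.7 in sgDDX6.1, and 10.9 and 10.4 in sgDDX6.2, a log2 change of -2.37 (limma adjusted p = 9.48e-11). In contrast EPHX1, an epoxide hydrolase, had 47.7 and 51.6 TPM in sgNS, 84.9 and 85.3 in sgDDX6.1, and 121.2 and 119.1 in sgDDX6.2. HMOX1, the heme oxygenase, also rose, from 11.5 and 10.1 TPM to 17.4 and 18.7 in sgDDX6.1 and 23.8 and 25.4 in sgDDX6.2. The log2 changes were 1.01 for EPHX1 and 0.90 for HMOX1. Of the set of 10, NQO1, TXNRD1 and SRXN1 on this list fell, PRDX1 rose (0.38), and TXN did not pass the test.

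Of 11 tested peroxiredoxins, peroxidases and catalase, 8 rose and 1 fell over both guides (median 0.23), where 33.8% of all tested genes rose and 32.9% fell (median 8.4e-04). The list was not tested as a set, and without the members 5 rose and 1 fell of 8 (median 0.21). Without ribosomal protein genes the 11 split into 7 higher and 2 lower (median 0.14). PRDX4, the peroxiredoxin of the endoplasmic reticulum, rose by 0.37 on the log2 scale. GPX3, the secreted glutathione peroxidase, had 4.74 and 6.22 TPM in sgNS, 9.16 and 9.55 in sgDDX6.1, and 26.7 and 26.5 in sgDDX6.2, a change of 1.39 over both guides (limma adjusted p = 5.91e-08). PRDX5 was the gene that fell, and mainly with 1 guide. It had 384.1 and 390.3 TPM in sgNS, 255.4 and 291.0 in sgDDX6.1, and 365.4 and 364.2 in sgDDX6.2. Of 3 tested genes of superoxide dismutation, SOD2 and SOD1 rose (SOD1 by 0.28), and CCS, the copper chaperone of SOD1, had -0.10 (adjusted p = 0.341).

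Among 20 thioredoxin and glutaredoxin genes 7 rose and 6 fell (median 0.03), where 33.8% of all tested genes rose and 32.9% fell. Without ribosomal protein genes 5 were higher and 8 lower (median -0.06). With the GC trend removed 8 were higher and 6 lower (median 0.08). TXNIP, the arrestin-like protein that binds and inhibits thioredoxin, had 486.1 and 468.9 TPM in sgNS, 122.3 and 114.1 in sgDDX6.1, and 126.5 in both sgDDX6.2 libraries. It fell by 1.96 on the log2 scale (limma adjusted p = 2.79e-12) while TXN itself did not pass the test. MSRB1, a selenoprotein that repairs oxidized methionine, rose by 1.13, from 31.6 and 36.2 TPM in sgNS to between 72.4 and 79.4 in the sgDDX6 libraries. GLRX2, a mitochondrial glutaredoxin, fell by 0.34.

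TXNRD1 and GPX1 are both selenoproteins and moved in opposite directions. Of 23 tested genes of selenoproteins and their synthesis, 6 rose and 9 fell (median -0.08), where 33.8% of all tested genes rose and 32.9% fell. Without ribosomal protein genes 4 were higher and 12 lower of 24 (median -0.16). With the GC trend removed 8 were higher and 9 lower (median -0.02). SECISBP2, which binds the selenocysteine insertion element, had 59.5 and 59.7 TPM in sgNS and between 37.2 and 41.0 in the sgDDX6 libraries (-0.58). SEPHS1, a selenophosphate synthetase relative, had 59.3 and 55.6 TPM in sgNS and between 34.8 and 43.3 in the sgDDX6 libraries (-0.56).

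The thioredoxin and glutathione chains both draw on NADPH. Of 19 tested genes listed under NADPH supply 6 rose and 9 fell (median -0.13), where 33.8% of all tested genes rose and 32.9% fell. Without ribosomal protein genes 5 were higher and 11 lower (median -0.23), with the GC trend removed 6 and 8 (median -0.02), and with quantile normalization the median was -0.08. The list is broad, and some of its genes, such as TALDO1, TKT and MTHFD1L, do not make NADPH themselves. The genes with the lowest adjusted p were of mitochondrial folate metabolism. ALDH1L2 had 51.2 and 51.7 TPM in sgNS and between 1.65 and 1.92 in the sgDDX6 libraries. MTHFD2 had 915.3 and 872.6 TPM in sgNS and between 176.8 and 217.0 in the sgDDX6 libraries, and MTHFD1L changed by -1.67. The changes were -4.25 for ALDH1L2 and -2.19 for MTHFD2.

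The phagocyte NADPH oxidase, uses NADPH to make superoxide. Of its 7 tested genes 6 rose and 0 fell over both guides (limma, median 0.34), where 33.8% of all tested genes rose and 32.9% fell. With sgDDX6.1 alone 5 rose and with sgDDX6.2 alone 6 rose, and 7 were higher over both guides with quantile normalization (median 0.31). The count over both guides was 6 higher and 0 lower without ribosomal protein genes (median 0.25). It was the same with the GC trend removed (median 0.36). NCF1, a cytosolic organizer of the complex, had 229.2 and 239.0 TPM in sgNS and 232.0 and 241.4 in sgDDX6.1, but 421.2 and 429.1 in sgDDX6.2, so it did not pass with sgDDX6.1 (0.016, adjusted p = 0.743). CYBB, the catalytic subunit, rose by 0.31, its partner CYBA by 0.34, the GTPases RAC1 and RAC2 by 0.33 and 0.44, and CYBC1, a chaperone of CYBB, by 0.45. NCF4 was not matched by name and is not analysed here. NCF1 has near-identical pseudogene copies, so its reads can be split among them. These are genes of myeloid cells, whose 7 markers split into 4 higher and 3 lower over both guides, and 3 and 3 with sgDDX6.1. The part of those marker changes in the oxidase genes was not tested.

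**Figure D4:**
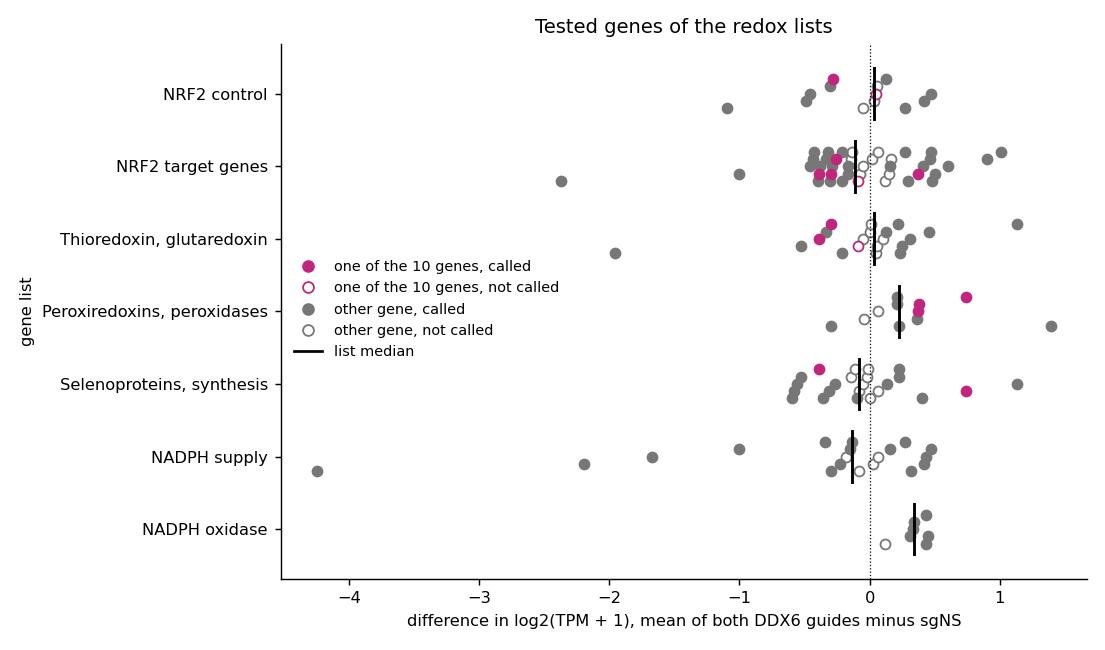
Difference in log2(TPM + 1) of both DDX6 guides from sgNS (horizontal axis) for each tested gene of 7 lists, with the 10 genes in magenta, other genes in grey, filled points past the test and black bars at the list medians. Peroxide enzymes (8 of 11 higher) and oxidase genes (6 of 7 higher) lie mostly to the right of 0, and the NRF2 targets spread to both sides.

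The profiles nearest to those of NFE2L2 and TXNRD1 were sought among 9288 tested genes with a mean of at least 5 TPM, by the root mean square difference of centred log2(TPM + 1) over the 6 libraries. For NFE2L2 they were ATG12, BRD3 and STRBP (0.0124, 0.0138 and 0.0157, where the root mean square of the NFE2L2 profile itself was 0.138). For TXNRD1 they were RHOT1, MRPL30 and WEE1 (0.0189, 0.0194 and 0.0239 against 0.199). The ranking is a description over 6 libraries in 3 groups.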

How the data were processed

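Poly(A)+ RNA of 6 Mono-mac-6 libraries was measured, 2 for each of 3 guides. The authors deposited 1 table of TPM per gene, per the labels; RSEM 1.2.31 and the build GRCh38 are named in the submitters' processing notes. Read depth is unknown, because TPM keeps none, and no interval from counts can be given. Samples were grouped by the labelled guide. Genes with at least 1 TPM in at least 2 libraries (11151 of 18806) were tested as log2(TPM + 1) with limma 3.58.1 in R 4.3.3 (variance trend, 3 group means, 3 residual degrees of freedom), for 4 comparisons, with Benjamini-Hochberg adjustment over all tested genes and a threshold of 0.05. A fold change on this scale understates the change of low genes. The script was tested on simulated data. Alternatives were other pseudocounts, filters, scalings and designs and leaving out each library; the scaling without ribosomal protein genes and the removal of the GC trend were added after seeing the data. The members and the gene lists were chosen with earlier results of these data known. Named are the 10 genes, up to 3 genes of each other list with the lowest adjusted p, small MAF and oxidase genes, DDX6 and the nearest profiles; single marker genes and overlapping genes were named after their values were seen. Coordinates and promoters are from RefSeq (GRCh38.p14), transcripts from GENCODE release 29. Protein sequences were not used here. Some genes of these lists are counted but not reported here by name.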

Additional observations from a re-analysis of the deposited data

Results flagged for a closer look

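For 3 of the 10 genes the effects of the 2 DDX6 guides differed by a test of the difference itself (sgDDX6.2 minus sgDDX6.1, log2, limma over all genes). TXNRD1 differed by -0.19 (adjusted p = 0.00787), PRDX1 by 0.34 (adjusted p = 3.68e-05) and CAT by 0.12 (adjusted p = 0.0131). DDX6 mRNA itself differed by -0.01 between these guides (adjusted p = 0.918). That mRNA level does not measure how much DDX6 protein was lost with either guide. The cause of the differences was not tested.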

How the results depend on the processing

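The 8 genes called over both guides were called in the same direction under all 16 alternatives, with GPX1 between 0.62 and 0.79 and TXNRD1 between -0.48 and -0.31. The count of the 10 genes called between the DDX6 guides was less stable: 3 as reported, 6 with a replicate block, 5 with only the groups compared and 5 with the GC trend removed, and between 1 and 5 with a library left out. Same-numbered libraries correlated at 0.262 (sgNS and sgDDX6.1), 0.0977 (sgNS and sgDDX6.2) and 0.0399 (sgDDX6.1 and sgDDX6.2) in their deviations from group means. The main fit did not pair libraries by replicate number, and whether those numbers pair the samples is not settled. Signs turned for KEAP1 and TXN against sgNS and for SRXN1, NFE2L2 and SOD2 between guides. KEAP1 over both guides was -0.040 without ribosomal protein genes and -0.014 with the GC trend removed, and ranged from -0.011 to 0.116 with a library left out. KEAP1 with sgDDX6.2 was -0.025 under quantile normalization, -0.093 without ribosomal protein genes and -0.107 with the GC trend removed (limma adjusted p = 0.011), and ranged from -0.060 to 0.068 with a library left out. KEAP1 with sgDDX6.1 (0.10, not called) was called with the replicate block (adjusted p = 0.0345), with the GC trend removed (adjusted p = 0.0427) and without sgNS replicate 2 (adjusted p = 0.0226). TXN with sgDDX6.1 was 0.048 with the GC trend removed and ranged from -0.095 to 0.048 with a library left out. Between the guides SRXN1 was 0.011 under quantile normalization and 0.0057 with median centring. With a library left out, SRXN1 ranged from -0.060 to 0.031, NFE2L2 from -0.051 to 0.0019 and SOD2 from -0.0078 to 0.114. The cause of these turns was not tested. A lone library left in a group is assumed to vary like the other groups. With 2 libraries a group, 1 Cas9 clone and unknown depth, small differences such as those of KEAP1 and TXN are not settled.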
